A study of Glycyrrhiza uralensis with 12 samples.

Results

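In *Glycyrrhiza uralensis* (licorice) seedlings, 42 of 28028 annotated genes had a higher level in every library from salt-watered plants than in every library from plants watered without salt, and their mean with salt alone did not stand far above their mean with salt and the endophyte G2. The 42 genes were chosen by their measured levels. Each gene had to be above in all 6 salt libraries (S+G2 and S) relative to all 6 no-salt libraries (CK+G2 and CK). The mean level with salt had to be at least 1.5 times the mean level without salt, and the mean level in S had to stay under 1.5 times that in S+G2, with 1 added to each mean. The 22 carbohydrate metabolism genes that the study itself listed were left out of the choice. Levels are given as CPM, the reads of a gene in each 1000000 reads mapped in the same library.

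The 4 groups held 3 libraries each. S+G2 seedlings (labelled S+B) received water with 75 mM NaCl and later *Bacillus cereus* G2, and S seedlings received water with 75 mM NaCl. CK+G2 seedlings (labelled CK+B) received water and later G2, and CK seedlings received distilled water. Per the study's methods, NaCl was given at sowing and G2 only to grown seedlings, so the exposure to salt was longer than that to G2. All groups were 45 days of age, grew in sterilized desert sand without nutrients and were ground as seedlings. Full-length cDNA was then read by an Oxford Nanopore procedure, although the study's methods also name an Illumina platform for the sequencing. G2 is a strain isolated from *G. uralensis* roots, and no line, mutant or transgene was involved. The study calls the 3 libraries of a group biological replicates. The methods give each treatment 3 replications made up of pots, and say that seedlings for RNA were ground, grouped by weight and replicated. Neither the methods nor the labels say whether the libraries came from separate plants or from portions of shared ground material. The p-values therefore measure the spread between these samples.

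Excess NaCl reaches a plant both as a shortage of available water and as toxic sodium. Roots and shoots are known to answer with ion transporters that keep sodium out of the cytosol, with osmoprotectants and sugars, with late embryogenesis abundant proteins and dehydrins, with antioxidant enzymes, and with abscisic acid signaling that drives much of the change in gene expression. The gene annotation used here gives exon positions and no protein names. None of the 42 genes can therefore be placed in these classes, and each is described by its identifier, its gene structure, its transcripts and its levels. The RNA came from ground seedlings, so more cells of a type and more RNA per cell cannot be told apart.

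The libraries held between 3303591 and 3929023 reads, and a single read was worth between 0.255 and 0.303 CPM. The 2 listed Rubisco genes, which mark green tissue, were at 7523 CPM or more (Glyur000604s00024572) and at 122 CPM or more (Glyur001973s00030832) in every library. Both had higher means with salt, with overlapping libraries. Glyur000604s00024572 was at 23125, 32629 and 18027 CPM in S+G2 and 21077, 20059 and 21858 CPM in S, against 26328, 10129 and 7523 CPM in CK+G2 and 8774, 14475 and 18392 CPM in CK. Glyur001973s00030832 was at 514, 1095 and 363 CPM in S+G2 and 500.3, 596 and 633 CPM in S, against 787, 158 and 122 CPM in CK+G2 and 163, 256 and 447 CPM in CK. In both, S+G2 replicate 2 was the highest salt library and CK+G2 replicate 1 the highest no-salt library, while CK replicate 1 and CK+G2 replicates 2 and 3 were low. The part of these markers in the differences of the 42 genes was not tested.

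Of the 28028 genes, 76 (0.271%) had every salt library above every no-salt library, and 286 (1.02%) had every salt library below. With the additional 1.5-fold limit, the counts were 43 genes above (0.153%) and 169 genes below (0.603%). The limit on S over S+G2 removed 1 further gene and left the 42 genes (0.15%). These shares were fixed by the choice and are a description. The genes just inside the 1.5-fold limit were Glyur000043s00003765, at 1.51 times, and Glyur000596s00021307, at 1.53 times. The genes just outside it were Glyur000506s00021885, at 1.495 times, and Glyur000103s00007434, at 1.48 times. The limit on S over S+G2 was passed most narrowly by Glyur000005s00001103 (1.22 times) and Glyur000755s00017993 (1.15 times), and Glyur000876s00020492 lay outside it at 1.56 times.

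Membership depended on single libraries, because 1 no-salt library with a high value or 1 salt library with a low value was enough to keep a gene out. The same choice gave 156 genes without CK+G2 replicate 1, 90 without S replicate 3, 83 without S+G2 replicate 3, 78 without CK replicate 3 and 69 without CK+G2 replicate 3. Between 36 and 42 of the 42 genes stayed when any single library was left out, and 29 of them stayed whichever library it was. The count was 67 when the libraries were rescaled by TMM (a trimmed mean of gene-wise ratios), with 37 of the 42 genes among them, and 72 under median-of-ratios scaling, with 40 of the 42.

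The 42 genes covered a wide span of levels. Their mean in the salt libraries lay between 0.765 and 930 CPM. It was at least 100 CPM in 9 genes, between 10 and 100 CPM in 15 genes and under 10 CPM in 18 genes, and 11 genes averaged under 1 CPM in the no-salt libraries. The ratio of the means, each plus 1 CPM, had a median of 1.69 and ran up to 5.11. Ratios of means given below for single genes also carry the added 1 CPM. It was at least 2 in 11 genes and under 2 in the other 31. The median log2 difference between salt and no-salt means was 0.76 over the 42 genes, against -0.07 over all 20315 annotated genes averaging at least 1 CPM. Summed over the 42 genes, the level was 3649 ± 433 CPM in S+G2, 3218 ± 247 CPM in S, 1895 ± 469 CPM in CK+G2 and 1862 ± 357 CPM in CK (SD, n = 3 each). Glyur000596s00021307 and Glyur000389s00028192 together gave 48.2% of the sum with salt.

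**Figure D1:**
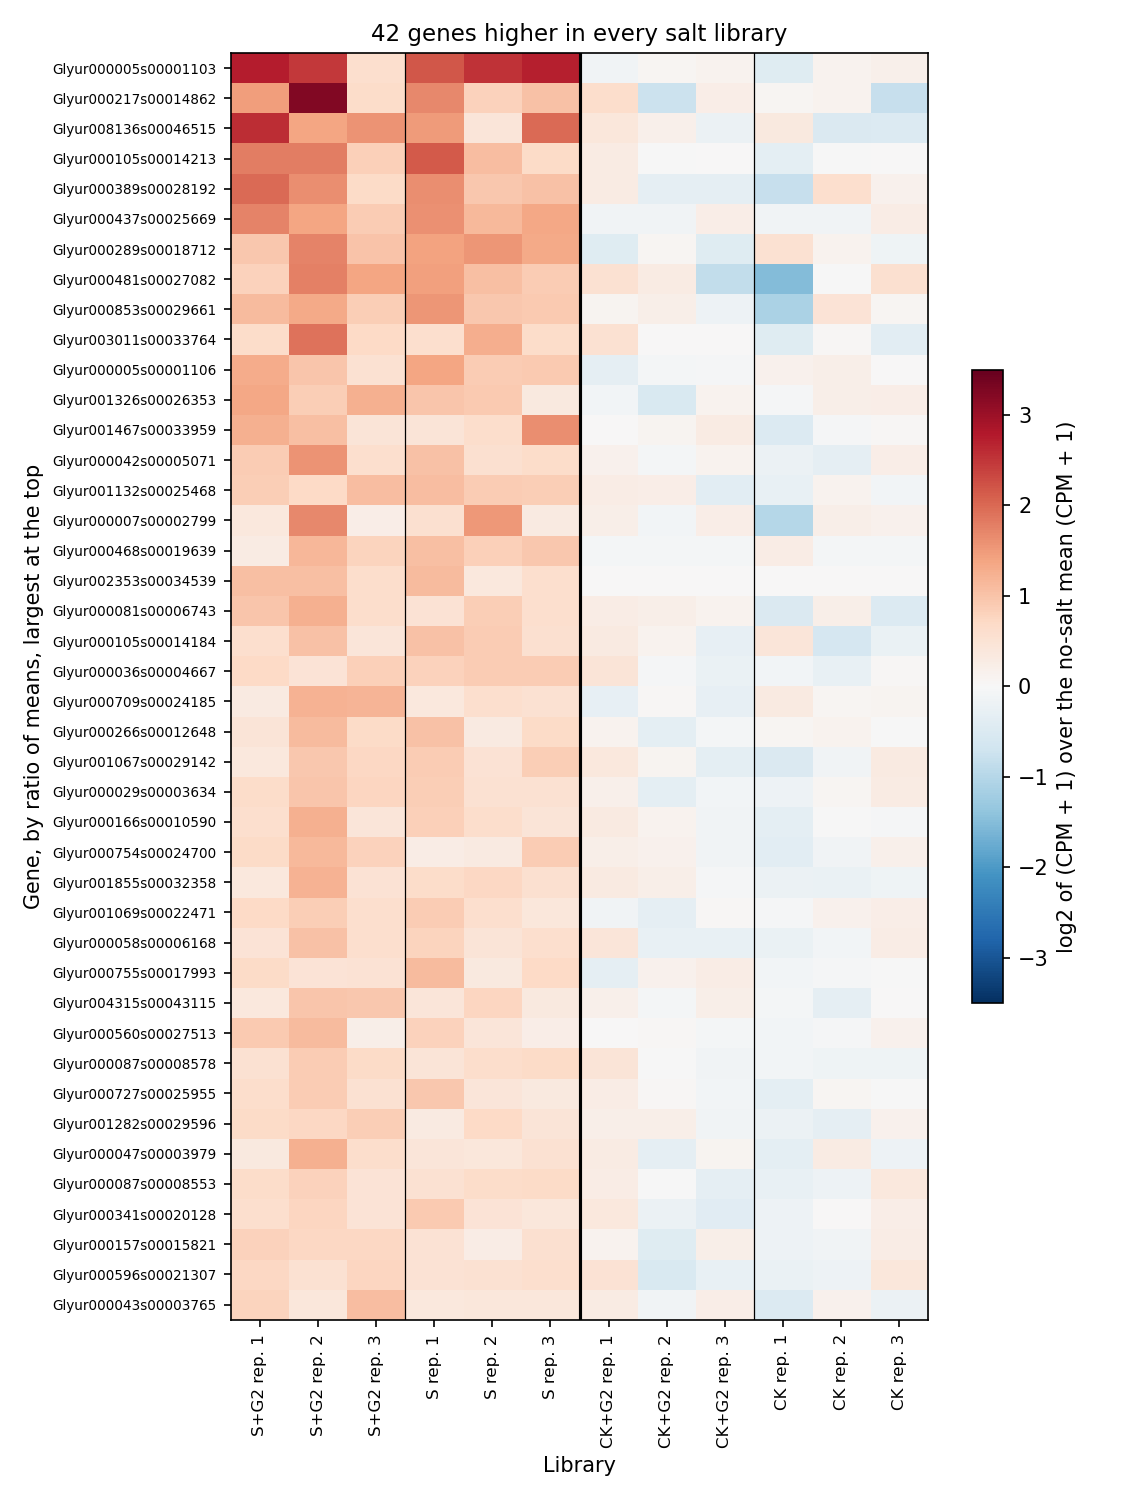
Level of each of the 42 genes (rows, largest ratio of means at the top) in each of the 12 libraries (columns, salt libraries left of the thick line), drawn as the log2 of CPM plus 1 over the mean of the no-salt libraries plus 1. All 6 salt columns are on the red side in every row, which the choice required, and S+G2 replicate 2 holds the highest value of 22 genes.

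The largest ratio of means, each plus 1 CPM, belonged to Glyur000005s00001103 (Scaffold00005, 596361 to 597995, plus strand). It is a gene of 2 exons with 1338 bp of coding sequence. It was at 10.4, 8.44 and 1.55 CPM in S+G2 and at 6.67, 8.72 and 10.2 CPM in S, against 0.547, 0.789 and 0.841 CPM in CK+G2 and 0.257, 0.830 and 0.908 CPM in CK. In 5 of the 6 salt libraries the gene was far above the no-salt libraries, and S+G2 replicate 3 lay close to them. Its ratio of means, each plus 1 CPM, was 5.11.

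Glyur000217s00014862 (Scaffold00217, 206369 to 207028, minus strand) had the shortest coding sequence of the 42 genes, 186 bp. Its levels were 48.2, 167 and 26.7 CPM in S+G2 and 56.6, 30.4 and 35.4 CPM in S, against 26.2, 9.47 and 19.9 CPM in CK+G2 and 17.5, 18.6 and 9.08 CPM in CK. The S+G2 mean of 80.7 ± 75.7 CPM (SD, n = 3) rested on replicate 2, and S+G2 replicate 3 exceeded CK+G2 replicate 1 by less than 1 CPM.

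Glyur008136s00046515 (Scaffold08136, 369 to 1688, minus strand) is a gene of 1 exon with 1320 bp of coding sequence. It was at 9.85, 3.69 and 4.40 CPM in S+G2 and at 4.06, 1.41 and 6.11 CPM in S, against 1.37, 1.05 and 0.561 CPM in CK+G2 and 1.29, 0.277 and 0.303 CPM in CK. Its ratio of means was 3.27, but S replicate 2 and CK+G2 replicate 1 nearly met. Glyur000105s00014213, a gene of 1 exon with 309 bp of coding sequence, averaged 2.73 ± 1.24 CPM in S+G2 and 2.45 ± 1.93 CPM in S, against 0.363 ± 0.159 CPM in CK+G2 and 0.193 ± 0.168 CPM in CK (SD, n = 3 each).

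Glyur000389s00028192 (Scaffold00389, 155575 to 156542, minus strand) combined a large ratio with a high level. It is a gene of 2 exons, with a predicted protein of 112 residues. It was at 1092, 860 and 447 CPM in S+G2 and at 859, 537 and 564 CPM in S, against 336, 225 and 221 CPM in CK+G2 and 159, 414 and 311 CPM in CK. The salt and no-salt libraries did not overlap, as the choice required, though S+G2 replicate 3 and CK replicate 2 were close. The ratio of means was 2.61. Within CK, replicate 1 was far under the other 2 libraries.

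Glyur000481s00027082 (Scaffold00481, 67237 to 72997, plus strand), with 8 exons and only 213 bp of coding sequence, had the next high level among the large ratios. It was at 117, 225 and 175 CPM in S+G2 and at 181, 138 and 122 CPM in S, against 95.4, 80.5 and 36.2 CPM in CK+G2 and 22.4, 65.1 and 97.5 CPM in CK. The no-salt libraries differed among themselves more than 4-fold, and the highest of them, CK replicate 3 and CK+G2 replicate 1, came near S+G2 replicate 1 and S replicate 3.

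Among the 10 largest ratios were also genes expressed at a few CPM. Glyur000289s00018712 averaged 4.91 ± 1.92 CPM in S+G2 and 5.60 ± 0.553 CPM in S, against 1.08 ± 0.432 CPM in CK+G2 and 1.82 ± 0.695 CPM in CK (SD, n = 3 each). For Glyur000853s00029661, a gene of 9 exons, the means were 4.83 ± 0.962 CPM in S+G2 and 5.08 ± 1.63 CPM in S, against 1.81 ± 0.363 CPM in CK+G2 and 1.61 ± 1.27 CPM in CK (SD, n = 3 each). In both genes the S+G2 and S libraries overlapped.

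**Figure D2:**
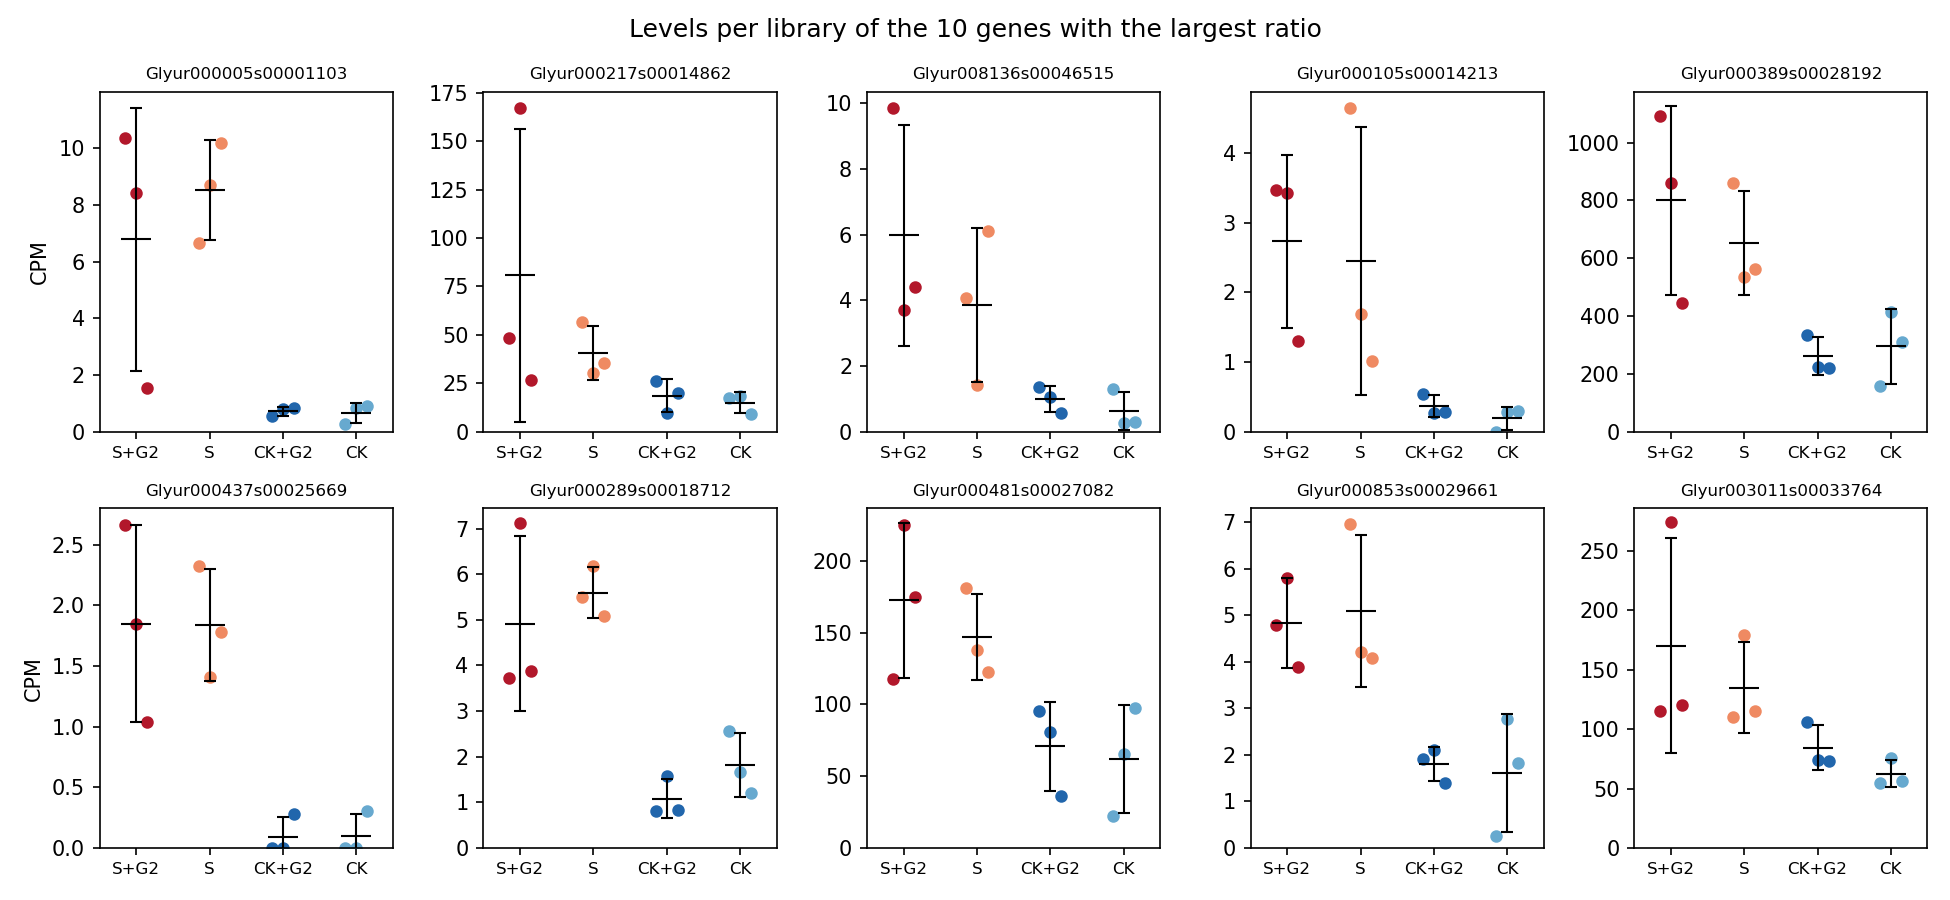
CPM in each library (points) of the 10 genes with the largest ratio of salt to no-salt means, by group, with the mean (horizontal line) and SD (bar) of 3 libraries. The scale differs between panels and starts at 0; the points of S+G2 and S lie above those of CK+G2 and CK in every panel, and the S+G2 points of Glyur000217s00014862 spread between 26.7 and 167 CPM.

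The most abundant gene of the 42 was Glyur000596s00021307 (Scaffold00596, 20169 to 25789, minus strand), with 10 exons and 843 bp of coding sequence. It was at 1010, 873 and 1033 CPM in S+G2 and at 865, 879 and 918 CPM in S, against 863, 417 and 511 CPM in CK+G2 and 518, 540 and 798 CPM in CK. The salt libraries were tightly grouped, while the no-salt libraries spread over about a 2-fold range, and CK+G2 replicate 1 came within 3 CPM of S replicate 1. Among the other abundant genes, Glyur000058s00006168 averaged 226 ± 46.4 CPM in S+G2 and 211 ± 25.2 CPM in S, against 138 ± 41.1 CPM in CK+G2 and 136 ± 25 CPM in CK (SD, n = 3 each). Glyur000029s00003634 averaged 211 ± 24.2 CPM in S+G2 and 192 ± 27.0 CPM in S, against 115 ± 20.8 CPM in CK+G2 and 128 ± 21.2 CPM in CK (SD, n = 3 each). These genes and the abundant Glyur001282s00029596, Glyur000087s00008578, Glyur000166s00010590 and Glyur000036s00004667 had ratios between 1.53 and 1.71, in the lower part of the range.

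At the other end, some genes were counted in a handful of reads. Glyur002353s00034539 had 17 reads over the 6 salt libraries and none over the 6 no-salt libraries, which is at least 5.54-fold higher at equal library totals when 3 reads over the group are taken as the floor. Glyur000437s00025669 had 41 reads with salt and 2 without, a ratio of 20.0 with a counting interval between 5.20 and 171. Glyur000468s00019639 had 20 reads with salt and 1 without, a ratio of 19.5 with a counting interval between 3.13 and 810. These 3 values compare pooled reads at equal library totals without the added 1 CPM. They are therefore a different measure from the ratios of means above. The intervals are exact at 95% on pooled reads and cover counting error only, not the spread between libraries. The cDNA was amplified by PCR and carried no molecular identifiers, so several reads may come from the same molecule. The genes were chosen for this difference, so the ratios and intervals are a description and not a test.

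The separation of the closest libraries was small in nearly all 42 genes. The lowest salt library over the highest no-salt library, each plus 1 CPM, had a median of 1.07, and only Glyur000437s00025669 passed 1.5 (1.56). In 18 genes these libraries differed by at most 2 reads, and in 10 genes the lowest salt library had no more reads than the highest no-salt library, so that the order came from the library totals. In 0 of the 42 genes did the 95% Poisson intervals of these closest libraries stand apart.

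The highest no-salt value came from CK+G2 replicate 1 in 18 genes and from CK replicate 3 in 10 genes. The lowest no-salt value was assigned to CK replicate 1 in 18 genes, where ties went to the first library and CK replicate 1 was the first. Ties at 0 CPM are therefore among the 18. Glyur002353s00034539 was at 0 CPM in every no-salt library, and Glyur000437s00025669 in CK replicates 1 and 2 and CK+G2 replicates 1 and 2. Among the salt libraries, S+G2 replicate 2 was the highest in 22 genes and S+G2 replicate 3 the lowest in 11. The summed level of the 42 genes was 4026 CPM in S+G2 replicate 2 and 3063 CPM in S replicate 2, the extremes with salt, against 2437 CPM in CK+G2 replicate 1 and 1488 CPM in CK replicate 1, the extremes without salt. The no-salt libraries also differed across all genes. Against CK replicate 1 and CK+G2 replicates 2 and 3, the mean of CK replicates 2 and 3 and CK+G2 replicate 1 was higher in 32 of the 42 genes. It was higher in 36.6% of all genes averaging at least 1 CPM. The median log2 difference was 0.19 over the 42 genes, whereas the same median over all genes averaging at least 1 CPM was -0.11. S+G2 replicate 2 was high in the Rubisco genes as well. The split of the no-salt libraries used here is the one seen above in the Rubisco levels, so those genes are no separate observation of it. The part of this split in the salt difference was not tested.

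The salt difference was present with and without G2, as the choice demanded. Between S+G2 and CK+G2 the median log2 difference was 0.81 over the 42 genes, between 0.51 and 2.18, and between S and CK it was also 0.81, between 0.34 and 2.52. All genes averaging at least 1 CPM had medians of -0.09 for S+G2 minus CK+G2 and -0.05 for S minus CK. A 1.5-fold higher mean was reached in both comparisons by 30 of the 42 genes, only in S+G2 against CK+G2 by 9 and only in S against CK by 3. Among all genes averaging at least 1 CPM, 5.11% reached it in S+G2 against CK+G2 and 5.46% in S against CK. These comparisons were used by the choice, so no test was made.

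The salt difference was larger with G2 than without in 25 of the 42 genes and smaller in 17, with a median log2 change of 0.03 that ran between -0.37 and 0.80. The choice capped S over S+G2 only, so it left more room for a larger difference with G2. Without S+G2 replicate 2 the median of S+G2 minus CK+G2 was 0.67, against 0.81 for S minus CK. The largest excess with G2 was that of Glyur000709s00024185, a gene of 2 exons with 1707 bp of coding sequence. It was at 0.533, 1.85 and 1.81 CPM in S+G2 and at 0.580, 0.844 and 0.763 CPM in S, against 0, 0.263 and 0 CPM in CK+G2 and 0.515, 0.277 and 0.303 CPM in CK. The 2 higher S+G2 values are 7 reads each, and every other library held at most 3 reads. The largest shortfall with G2 was that of Glyur000036s00004667, at 80.7, 70.2 and 88.5 CPM in S+G2 and 87.3, 92.5 and 93.2 CPM in S, against 67.8, 48.4 and 42.3 CPM in CK+G2 and 46.6, 41.3 and 51.5 CPM in CK. Its S+G2 and S libraries overlapped, and whether the salt difference itself differed with G2 was not tested in any of the genes.

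**Figure D3:**
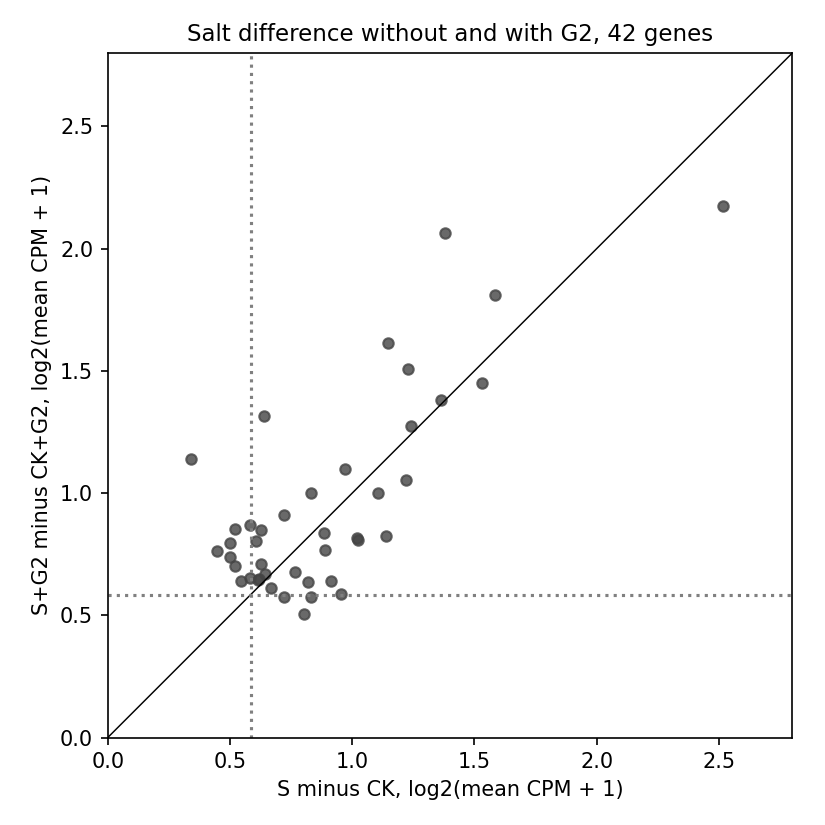
Log2 difference of mean CPM plus 1 between S and CK (horizontal axis) and between S+G2 and CK+G2 (vertical axis) for each of the 42 genes, with the line of equality and dotted lines at 1.5-fold. All points lie above 0 on both axes, 25 lie above the line of equality and 17 below it.

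Under salt, S+G2 minus S had a median log2 difference of 0.11 over the 42 genes, against -0.01 over all genes averaging at least 1 CPM, and the S+G2 mean was higher in 31 genes and lower in 11. This direction rested on S+G2 replicate 2, without which the median was -0.01 and 19 of the 42 genes were higher. The median was 0.22 without S replicate 1 and 0.18 without S+G2 replicate 3. The choice capped S over S+G2 but not S+G2 over S, so it allowed a higher S+G2 mean. Of the 38 genes averaging at least 1 CPM, 1 was at least 1.5 times higher in S+G2, Glyur000217s00014862 at 1.96 times, against a background of 4.12%. None of the 38 was at least 1.5 times lower in S+G2 (3.83% of all such genes), where the cap left no room. The S+G2 libraries lay above all S libraries in 2 of the 38 genes (5.1% of all such genes) and below all of them in none (6.47%). The 2 genes were Glyur000157s00015821, at 22.6, 21.4 and 21.2 CPM in S+G2 and 18.0, 15.2 and 18.8 CPM in S, and Glyur000043s00003765, in which S+G2 replicate 2 and S replicate 2 were both at 8.44 CPM after rounding.

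The effect of G2 without salt was tested by limma on log2(CPM + 1). The choice did not compare CK+G2 with CK, but it held the libraries of both groups under the lowest salt library, which limits how far the groups could differ in these genes. The absence of calls is therefore a description of the chosen genes and does not show that G2 left them unaffected. Of the 42 genes, 34 passed the filter of at least 1 CPM in at least 3 of the 6 libraries, a filter on the no-salt libraries alone. None of the 34 passed an adjusted p of 0.05 in either direction, against 4 of 21675 genes that were higher in CK+G2 (0.0185%) and 9 that were lower (0.0415%). None reached an unadjusted p of 0.05 either, against 2.59% of all genes higher and 3.44% lower. The lowest adjusted p among the 34 was 0.869 by limma with Benjamini-Hochberg adjustment. On whole reads, edgeR's quasi-likelihood test covered 28 of the 42 genes with a lowest adjusted p of 0.883, and by DESeq2 31 had an adjusted p and the lowest was 1.00; neither tool gave an unadjusted p under 0.05 in any of them.

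The median log2 difference of CK+G2 minus CK was 0.16 over the 34 genes, against 0.02 over all genes tested. It was above 0 in 23 of the 34 genes and in 53% of all genes. This shift rested on single libraries, as the median was -0.03 without CK replicate 1 (15 of 31 genes above 0) and 0.01 without CK+G2 replicate 1 (16 of 31). The 34 values ran between -0.43 and 0.46, all within 1.5-fold. Of the 38 genes averaging at least 1 CPM over the 12 libraries, 0 had a CK+G2 mean at least 1.5 times higher (3.95% of all such genes) and 0 at least 1.5 times lower (4.5%). The CK+G2 libraries lay above all CK libraries in 1 of the 38 genes, Glyur001855s00032358 (5.09% of all such genes), and below all of them in 1, Glyur000005s00001106 (5.19%). The median standard error was 0.239, and in simulated counts of this comparison 19% of 2-fold changes and 92% of 4-fold changes were recovered. A change of 2-fold or less was therefore mostly not detectable. The genes changed in those counts were all above a minimum mean level. Recovery in genes under that level was not tested, so the 92% may not hold for the genes of a few CPM among the 42. The count of 13 genes called in all became 32 without CK replicate 1, 1 without CK replicate 2, 1 without CK replicate 3, 0 without CK+G2 replicate 2 and 6 without CK+G2 replicate 3, and in none of these fits was one of the 42 genes called.

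The gene nearest to a call was Glyur003011s00033764 (Scaffold03011, 2065 to 2472, minus strand), a gene of 1 exon with 408 bp of coding sequence. It was at 106, 73.6 and 73.5 CPM in CK+G2 and at 54.8, 75.3 and 56.6 CPM in CK, with a log2 difference of 0.43 ± 0.20 (SE) and an adjusted p of 0.869 by limma. The groups overlapped through CK replicate 2. Glyur000081s00006743, which has the longest coding sequence of the 42 genes (2505 bp), was at 4.65, 4.47 and 4.20 CPM in CK+G2 and 2.32, 4.43 and 2.42 CPM in CK, with a log2 difference of 0.46 ± 0.29 (SE) and an adjusted p of 0.958 by limma. In the other direction, Glyur001326s00026353 had 16.7, 11.8 and 19.3 CPM in CK+G2 and 17.3, 20.5 and 20.9 CPM in CK, a log2 difference of -0.30 ± 0.22 (SE). Glyur000289s00018712 differed by -0.43 ± 0.34 (SE), with an adjusted p of 0.992 by limma.

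**Figure D4:**
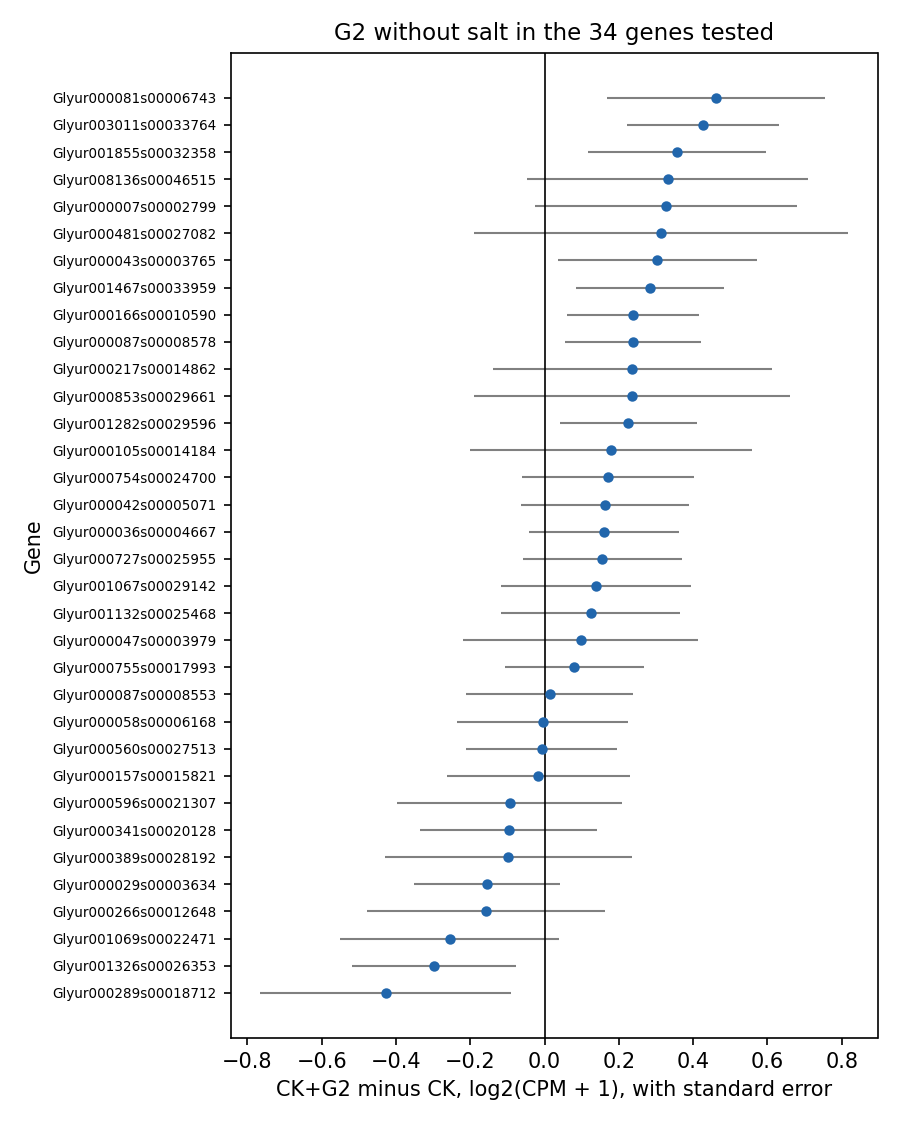
Log2 difference of CK+G2 minus CK (points) with its standard error (bars) by limma for the 34 of the 42 genes that passed the filter. The points lie between -0.43 and 0.46, 23 of them above 0.

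Reads of a gene were split over annotated transcripts and over transcripts assembled from the long reads, whose names begin with ONT. An assembled locus was assigned to a gene where its read sums equalled the gene's unassigned reads in all 12 libraries. This gave a single locus for 13349 of 13840 genes with at least 50 such reads (96.5%), and for 27 of the 30 such genes among the 42. In 26 of the 42 genes under 10% of the reads lay on annotated transcripts, against 38.3% of 23205 genes with at least 12 reads. For 10 of the 42 genes all reads lay on annotated transcripts.

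In the 13 genes of the set with at least 2 transcripts averaging 1 CPM or more and all transcripts known, 43 of 46 transcripts had a higher mean with salt, 29 by at least 1.5 times, and 14 had every salt library above every no-salt library. These transcripts add up to genes chosen for being higher with salt, so the counts largely follow from the choice and are a description. Over the pooled reads of the salt and of the no-salt libraries, the share of the leading transcript differed by at most 5.48 points in 12 of the 13 genes. Its share in single libraries varied far more in some genes, as in Glyur001132s00025468. There it was 30.9% in S+G2 replicate 3 (95% Wilson interval 23.0 to 40.1%) and 63.3% in S replicate 1 (53.4 to 72.1%), the extremes with salt, against 65.7% in CK+G2 replicate 3 (49.2 to 79.2%) and 4.88% in CK replicate 1 (1.35 to 16.1%), the extremes without salt. In Glyur000389s00028192, transcript ONT.9446.1 took 61.8% of the reads with salt and 60.1% without, and it and ONT.9446.2 were both higher in every salt library. In Glyur000596s00021307, ONT.11206.2 averaged 342 CPM with salt and 183 CPM without and was higher in every salt library, whereas ONT.11206.17 averaged 325 CPM with salt and 240 CPM without and overlapped.

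Glyur003011s00033764 was the exception among the 13 genes. Its main transcript, ONT.16904.3, held 61.7% of the gene's reads with salt and 91.2% without. A second transcript, ONT.16904.1, was at 35.9, 197 and 3.11 CPM in S+G2 and at 0.580, 86.6 and 1.78 CPM in S, against 2.73, 2.10 and 1.12 CPM in CK+G2 and 0.515, 2.49 and 2.12 CPM in CK. It was high in S+G2 replicates 1 and 2 and in S replicate 2, and in the other salt libraries it was at the level of the no-salt libraries. Its share of the gene's reads was 71.9% in S+G2 replicate 2 (95% Wilson interval 69.0 to 74.5%), 31.3% in S+G2 replicate 1 (27.1 to 35.8%) and 48.3% in S replicate 2 (44.4 to 52.2%), and at most 3.74% in the other 9 libraries. ONT.16904.3 alone was at 77.7, 75.2 and 114 CPM in S+G2 and at 106, 86.6 and 105 CPM in S, against 94.1, 68.9 and 69.0 CPM in CK+G2 and 49.4, 67 and 53.3 CPM in CK, so on this transcript the salt and no-salt libraries overlapped.

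**Figure D5:**
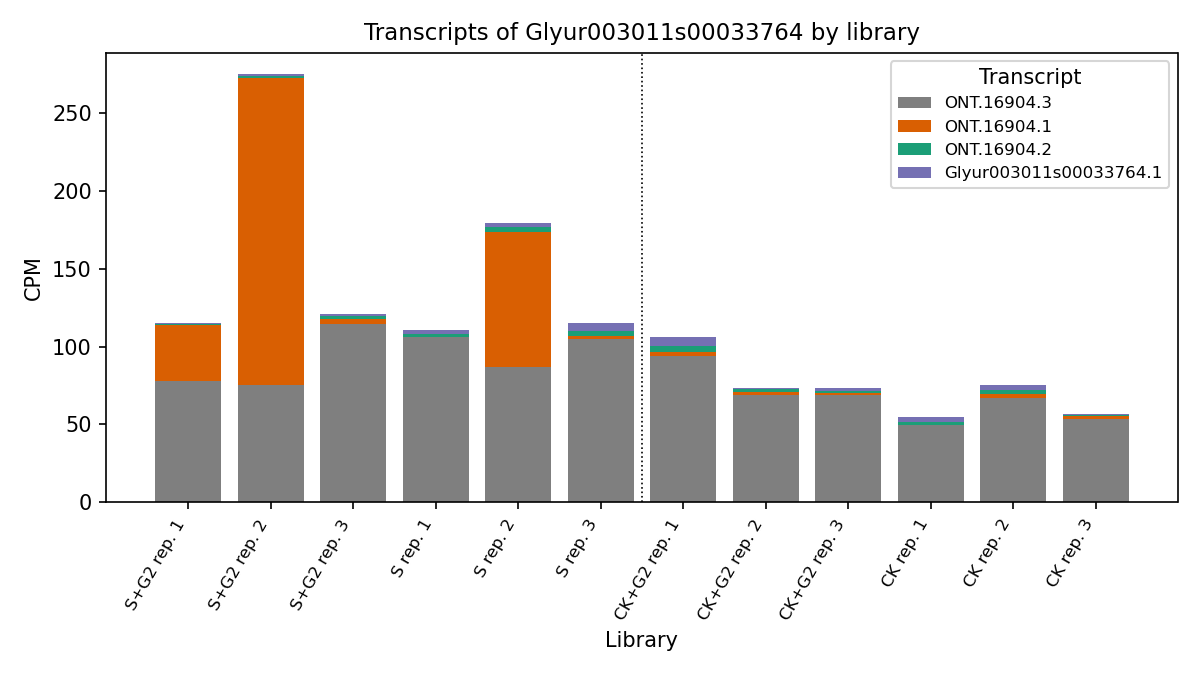
CPM of the 4 transcripts of Glyur003011s00033764 stacked for each library, salt libraries left of the dotted line. The orange part, ONT.16904.1, is large in S+G2 replicates 1 and 2 and S replicate 2 (35.9, 197 and 86.6 CPM) and at most 3.11 CPM in the other 9 libraries.

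In gene structure, the median number of exons of the 42 genes was 4, as over all 28028 genes, and 14.3% had a single exon, against 14.8% of all genes. The median coding length was 1035 bp, against 969 bp over all genes and 1089 bp over those averaging at least 1 CPM. A coding length under 600 bp was present in 12 of the 42 genes (28.6%), against 30.0% of all genes. More than 1 annotated transcript was listed for 4 of them (9.52%), against 5.74% of all genes.

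The 42 genes lay on 39 scaffolds, and none of their 78 direct neighbours belonged to the set. Of the 59 neighbours averaging at least 1 CPM, 29 had a higher mean with salt (49.2%, against 39.3% of all such genes), none had every salt library above, and their median log2 difference was -0.01. On Scaffold00005, Glyur000005s00001103 and Glyur000005s00001106 lay 12024 bp apart with 2 genes between them. Glyur000005s00001106 (610020 to 618280, minus strand) was at 2.93, 2.11 and 1.29 CPM in S+G2 and 3.19, 1.97 and 2.04 CPM in S, against 0.273, 0.526 and 0.561 CPM in CK+G2 and 0.772, 0.830 and 0.605 CPM in CK. Of the genes between, Glyur000005s00001104 averaged 26.7 CPM with salt and 17.2 CPM without, with overlapping libraries. The study lists the other, Glyur000005s00001105, as α-glucosidase, an enzyme that releases glucose from maltose and related sugars. It averaged 25.4 CPM with salt and 19.9 CPM without, also with overlapping libraries. It was at 34.1, 27.7 and 33.4 CPM in S+G2 and 23.2, 19.1 and 14.8 CPM in S. Without salt it was at 23.2, 22.6 and 17.9 CPM in CK+G2 and 17.5, 17.7 and 20.6 CPM in CK. The log2 difference was 0.03 for S minus CK and 0.56 for S+G2 minus CK+G2, so its higher mean with salt came from S+G2.

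A gene on the opposite strand overlapped 7 of the 42 genes (16.7%), against 23.3% of all genes. No source used here states whether the counting used strand, so reads of overlapping pairs may not be separable. The partner averaged at least 1 CPM for 3 of the 7 genes. These were Glyur000058s00006168, whose partner Glyur000058s00006167 averaged 146 CPM with salt and 101 CPM without, Glyur000087s00008578, whose partner Glyur000087s00008579 averaged 44.4 CPM with salt and 34.6 CPM without, and Glyur001067s00029142, whose partner Glyur001067s00029144 averaged 4.17 CPM with salt and 3.88 CPM without.

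Among the 22 carbohydrate metabolism genes left out of the choice, 1 met its numeric parts. This was Glyur000038s00004477, listed as an S-(hydroxymethyl)glutathione dehydrogenase/alcohol dehydrogenase (ADH), an enzyme class that interconverts alcohols and aldehydes. It was at 245, 224 and 158 CPM in S+G2 and at 130, 170 and 185 CPM in S, against 115, 56.3 and 53.8 CPM in CK+G2 and 79.3, 66.7 and 92.9 CPM in CK. The lowest salt library and the highest no-salt library were S replicate 1 and CK+G2 replicate 1, and the ratio of means was 2.38. In all, 7 of the 22 genes had a mean at least 1.5 times higher with salt, and in the other 6 the libraries overlapped. The study chose the 22 genes on these samples, so their direction is not independent evidence.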

How the data were processed

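Full-length cDNA of 12 seedling libraries was analysed, taken here as Oxford Nanopore reads. The study's methods describe that procedure but also name an Illumina platform. Per the study's methods, the authors removed reads under 500 bp, low-quality and ribosomal reads, mapped the rest (minimap2, per the labels) and counted reads with a match quality above 5. The deposited tables give CPM, computed by the authors by scaling each library's mapped reads to 1000000. The deposited annotation gives start and end coordinates, an "other" unit with no score or level. No source used here names the genome release. Per the methods, the authors tested with DESeq at a p-value under 0.05 and a 1.5-fold limit.

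CPM values were divided by the value of 1 read, and 100% of the values above 0 gave whole reads within 0.01 read. CK+G2 and CK were compared by limma 3.58.1 (trend) on log2(CPM + 1), with genes of at least 1 CPM in at least 3 of 6 libraries; run on the recovered reads, edgeR 4.0.16 called 0 genes and DESeq2 1.42.0 called 98. R 4.3.3, Python 3.11.15, pandas 2.3.3 and scipy 1.17.1 were used. The limma step was tested on simulated data with 200 changed genes, all above a minimum mean level, and 11.2% of its calls there were unchanged genes. Repeated exon lines (27089 of 217320) were counted once.

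The 42 genes and the gene lists were chosen with earlier results of these data known. Named genes were the 10 largest ratios, the 10 highest means with salt, the extremes of S+G2 over S (3 each way), the lowest p-values of CK+G2 against CK (2 each way), the genes next to each threshold and listed genes meeting the choice. Glyur002353s00034539, Glyur000468s00019639, Glyur000157s00015821, Glyur000005s00001106, Glyur001855s00032358, Glyur001132s00025468, Glyur001067s00029142, and the partner and neighbouring genes were named after their values were seen. Alternatives were other scalings, pseudocounts, filters, tools, a replicate block and leaving out libraries. A list of salt response genes by name could not be applied, because the annotation names no proteins. No sequences were used here.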

Additional observations from a re-analysis of the deposited data

Results flagged for a closer look

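Dixon's test for an outlying library was applied to 83 groups of 6 libraries (salt or no-salt, each of the 42 genes). The 42 genes were chosen by these same values, so its 95% limit gives no chance rate here. In 7 of the 83 groups the highest or lowest library stood apart from the other 5 by more than this limit, and no cause was tested. S+G2 replicate 2 was the high library in 4 of them: Glyur000217s00014862 at 167 CPM with the next salt library at 56.6 CPM, Glyur000042s00005071 at 33.0 CPM with the next at 22.3 CPM, Glyur001855s00032358 at 14.8 CPM with the next at 10.1 CPM, and Glyur000047s00003979 at 7.39 CPM with the next at 4.40 CPM. CK+G2 replicate 1 was high in Glyur000087s00008578, at 105 CPM with the next no-salt library at 76.5 CPM. CK replicate 1 was low in Glyur000007s00002799, at 2.06 CPM with the next at 4.73 CPM, and had the only no-salt read of Glyur000468s00019639, at 0.257 CPM.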

How the results depend on the processing

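The number of genes chosen, 42, was 67 under TMM scaling, 72 under median-of-ratios scaling, 11 with a 2-fold limit, 182 with CK replicate 1 and CK+G2 replicates 2 and 3 left out together (31 of the 42 among them), and between 42 and 156 with single libraries left out; the choice asks less of a gene when fewer libraries must be exceeded. All 42 genes stayed higher in mean with salt under both scalings, which moved the median salt difference of all genes by 0.07 on the log2 scale. The median log2 salt difference of the 42 genes, 0.76, was 0.97 with a pseudocount of 0.1 CPM, as low genes weigh more there, and between 0.69 and 0.81 with single libraries left out. The median of S+G2 minus S ran between -0.01 and 0.22, that of S minus CK between 0.73 and 0.82 and that of S+G2 minus CK+G2 between 0.67 and 0.89 with single libraries left out.

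For CK+G2 against CK, the 13 genes called were 0 by edgeR, 98 by DESeq2 (16 higher, 82 lower), 5 under either scaling (1 higher, 4 lower), 4 with a pseudocount of 0.1 CPM, 5 without the filter, 4 with a mean of at least 10 reads, and between 0 and 32 with single libraries left out; the cause was not tested. None of the 42 genes was called under any of these 16 alternatives, where their lowest adjusted p was 0.649 and their median log2 difference ran between -0.03 and 0.22. Same-numbered CK+G2 and CK libraries had correlations of -0.15, 0.09 and -0.09 between their deviations, so the numbers do not pair them; a replicate block gave 11 called genes. At 3 libraries a group, sequencing depth limits the genes of a few reads.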
